A study of Mus musculus with 8 samples.

Results

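Ribosome biogenesis genes encode the machinery that makes ribosomes: the factors that transcribe ribosomal RNA (rRNA) from its gene repeats, the small nucleolar ribonucleoproteins (snoRNPs) that modify it, and the proteins that cut it and assemble it into the small and large ribosomal subunits. A list of 40 such genes was examined in mouse heart. Each gene was read by the probe set annotated with its symbol alone, and where several did so, the brightest of them on average was taken. By this rule 39 of the 40 genes were measured, among 19938 genes in all; Noc2l had no such probe set and was not analysed here. The list itself goes by gene symbols, and a measured value, the mean level over all 8 arrays, enters only in the choice among several probe sets of Taf1d, Wdr12, Fbl and Ddx18.

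Ribosome production takes place mainly in the nucleolus, where RNA polymerase I transcribes a long precursor that holds most of the rRNA species. Box C/D snoRNPs methylate this precursor, box H/ACA snoRNPs convert some of its uridines to pseudouridine, and large complexes then cleave and fold it while ribosomal proteins join. The pathway is known to be active in growing and dividing cells, and in cultured heart muscle cells of the rat hypertrophic stimuli are known to raise rRNA synthesis.

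The arrays were Affymetrix whole-transcript arrays of ventricle RNA from C57Bl6 mice aged 9 weeks, 1 animal per array and 2 animals in each of 4 groups. The S105A PE group (arrays 7 and 8) carried the S105A mutation of Gata4 in homozygous form and received PE, and the S105A untreated group (arrays 5 and 6) had the same genotype without PE. The WT PE group (arrays 3 and 4) was wild type with PE, and the WT untreated group (arrays 1 and 2) was wild type without it. S105A replaces serine by alanine in GATA4, a transcription factor of heart muscle. PE, which the design text spells out as pseudoephedrine, an adrenergic stimulant, came from an osmotic pump under the skin at 100 mg per kg per day over 5 days. The protocol names saline as the alternative to PE, whereas the titles say untreated, and the titles name whole heart where the tissue field names ventricle. Neither the way the mutation was introduced nor the sex of the animals is stated in the labels.

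Values are log2 expression levels from RMA, a method that makes the intensity distributions of the arrays alike, so a shift shared by most genes would not be seen. The 8 array medians lay between 6.18 and 6.23. The 10 heart muscle markers had mean log2 levels of 13.17 to 13.53 on the 8 arrays, near the top of the value range of 2.63 to 14.45. Myh7, a myosin gene used as a marker of hypertrophy, was 2.30 log2 units higher with PE averaged over the genotypes (SE 0.12, limma adjusted p = 0.00808), and no other of the 19938 genes had an adjusted p under 0.05 in that contrast, so 0.00502% of all genes did. Array 3, and to a lesser degree array 7, stood apart from their partners, as described below, and the members named by their p are given without these arrays as well. A call here means an adjusted p under 0.05 over all genes in limma. An unadjusted p under 0.05 is used to name members, and the share of all genes that reach it is given with the main counts. In whole ventricle, fewer cells of a type and less RNA per cell cannot be told apart.

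The promoter stretches of 3 members are shown because these genes had an unadjusted p under 0.05 in at least 1 comparison below and a promoter window in the RefSeq table of mouse build GRCm38.p6. They are Rrn3, Nop2 and Heatr1. Npm1, which also reached that level, had no window in the table. Each is the stretch of 250 bases before the annotated start, read 5′ to 3′ on the plus strand, from which all 3 genes are transcribed. Capitals mark the E-box CACGTG, which Myc with Max and other factors can bind, and the GC box GGGCGG or its complement CCGCCC.
Rrn3 (chr16:13780449-13780698): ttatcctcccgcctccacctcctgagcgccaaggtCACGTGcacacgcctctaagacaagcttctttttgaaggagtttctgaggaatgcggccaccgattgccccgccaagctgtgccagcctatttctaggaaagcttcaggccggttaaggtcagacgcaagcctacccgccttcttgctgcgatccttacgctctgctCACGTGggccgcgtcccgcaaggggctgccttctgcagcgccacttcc
Nop2 (chr6:125131633-125131882): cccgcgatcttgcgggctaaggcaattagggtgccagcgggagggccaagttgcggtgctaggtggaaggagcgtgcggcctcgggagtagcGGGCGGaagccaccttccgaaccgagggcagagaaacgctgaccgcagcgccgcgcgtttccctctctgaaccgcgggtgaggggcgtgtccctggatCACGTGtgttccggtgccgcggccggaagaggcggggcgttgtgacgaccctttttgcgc
Heatr1 (chr13:12395125-12395374): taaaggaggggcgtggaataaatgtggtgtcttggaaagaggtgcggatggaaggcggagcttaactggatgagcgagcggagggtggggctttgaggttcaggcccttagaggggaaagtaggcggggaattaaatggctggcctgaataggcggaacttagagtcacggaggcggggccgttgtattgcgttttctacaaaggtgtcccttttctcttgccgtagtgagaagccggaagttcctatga

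The Rrn3 stretch held 2 E-boxes, whose first bases lie 215 and 48 bases before the start, and no GC box. That of Nop2 held 1 E-box, 60 bases before the start, and 1 GC box, and that of Heatr1 held neither. Both strands were searched, and no E-box shared a base with a GC box in any member's window. Of the members, 34 had at least 1 window, 42 windows in all. In the 250 bases before the start, 2 of these 42 windows (4.76%) held an E-box, against 6.02% of all 32851 windows. Those windows belong to 27025 genes of the RefSeq table, a set other than the genes tested on the arrays. With the 50 bases after the start included, 7 windows (16.7%) held one, against 7.15% of all windows. A GC box stood in 30 windows (71.4%), against 35.7% of all. These are matches of letters, not binding sites, and the base composition of the 2 sets of windows was not matched.

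The first question was whether PE altered the expression of these genes. None of the 39 members passed an adjusted p of 0.05 in the PE effect averaged over both genotypes (smallest limma adjusted p = 0.298), and the differences were small. Their median was 0.002 log2 units, against -0.02 over all genes tested, and their median size without regard to sign was 0.06, against 0.09 over all genes. With PE, 20 members lay higher and 19 lower, and 44% of all genes lay higher. At an unadjusted p under 0.05 there was 1 higher member, Npm1 (9.31% of all genes), and 1 lower, Rrn3 (7.44% of all genes), so the members' shares lay below those of all genes in each direction. Both directions together made 2 of 39 members, against 16.7% of all genes. The 95% interval of the difference stayed within 1.5-fold of no change in either direction for 38 of the 39 members (85% of all genes), Dkc1 being the exception. The difference was under 0.1 in size for 27 of the 39.

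**Figure D1:**
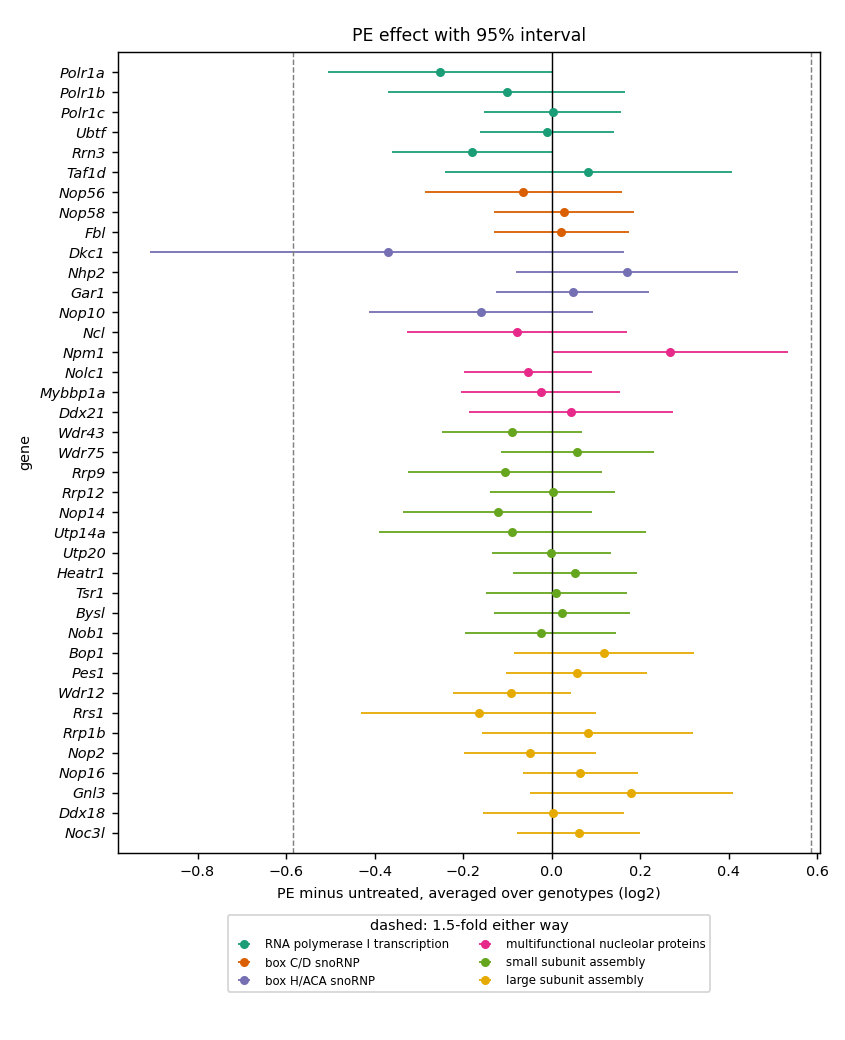
PE minus untreated in log2 units, averaged over both genotypes, for each of the 39 genes (points) with its 95% interval from limma (lines), coloured by role; dashed lines mark a 1.5-fold difference in either direction. The points lie between -0.37 for Dkc1 and 0.27 for Npm1, and only the interval of Dkc1 crosses a dashed line.

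Transcription of rRNA by RNA polymerase I was represented by 6 genes, with averaged PE differences from -0.25 to 0.08. Rrn3 encodes the factor TIF-IA, which brings the polymerase to the promoter of the rRNA gene. Its log2 level was 9.66 and 9.77 in the S105A PE hearts and 9.48 and 9.75 in the WT PE hearts, against 9.82 and 9.84 in S105A untreated and 9.85 and 9.87 in WT untreated. All 4 PE arrays lay below all 4 untreated arrays, with array 3 the lowest. The difference was -0.18 (SE 0.075, 95% interval -0.36 to 0.000, limma unadjusted p = 0.04997, adjusted p = 0.298), and -0.08 without arrays 3 and 7 (limma unadjusted p = 0.222).

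Polr1a, the largest subunit of the polymerase, had a like pattern. It measured 8.59 and 8.75 in S105A PE and 8.35 and 8.79 in WT PE, against 8.88 and 8.79 in S105A untreated and 8.88 and 8.93 in WT untreated. Here too the PE arrays lay below the untreated ones, although array 4 and array 6 both read 8.792, so that their order rests on further digits. The difference was -0.25 (SE 0.11, limma unadjusted p = 0.0501, adjusted p = 0.298). The other large subunit, Polr1b, differed by -0.10 (SE 0.11), and Polr1c, a subunit shared with RNA polymerase III, by 0.002 (SE 0.065). Ubtf, the architectural factor that keeps rRNA genes open, differed by -0.01 (SE 0.06). Taf1d, a subunit of the promoter selectivity factor, was at the upper end of the group at 0.08 (SE 0.14). It is read by 9 probe sets whose averaged PE differences ran from -0.33 to 0.11, and the one with the highest level was used.

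The snoRNP core proteins gave no common direction. Of the box C/D proteins, the methyltransferase Fbl differed by 0.02 (SE 0.06), Nop58 by 0.03 (SE 0.07) and Nop56 by -0.06 (SE 0.09). The 2 probe sets of Fbl gave 0.02 and 0.004, and whether both read the same place in the genome was not checked. Box H/ACA proteins spread more widely. Dkc1, the pseudouridine synthase dyskerin, measured 7.53 and 7.84 in S105A PE and 6.84 and 7.92 in WT PE, against 7.89 and 7.93 in S105A untreated and 8.00 and 7.79 in WT untreated. Array 3 minus array 4 was -1.075, the largest gap in size between these 2 arrays among the 39 genes, while array 4 lay within the untreated range. Its difference was -0.37 (SE 0.225, 95% interval -0.91 to 0.16, limma adjusted p = 0.409). Its partners in the same particle differed by -0.16 (Nop10, SE 0.11), 0.05 (Gar1, SE 0.07) and 0.17 (Nhp2, SE 0.105).

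Another 5 members are nucleolar proteins with several tasks in the pathway. Npm1, nucleophosmin, a histone and pre-ribosome chaperone, had the largest positive difference of all 39. Its level was 8.92 and 8.48 in S105A PE and 8.74 and 8.76 in WT PE, against 8.45 and 8.54 in S105A untreated and 8.54 and 8.28 in WT untreated. Array 8 lay inside the untreated range, so the groups overlapped. The difference was 0.27 (SE 0.11, 95% interval 0.001 to 0.53, limma unadjusted p = 0.0491, adjusted p = 0.298), and 0.16 without arrays 3 and 7 (limma unadjusted p = 0.124). Leaving out a single S105A PE array, the difference of Npm1 was 0.38 without array 8 and 0.16 without array 7. Npm1 has processed copies elsewhere in the genome, and a share of signal from them cannot be told apart here. Nucleolin, encoded by Ncl, differed by -0.08 (SE 0.105). The snoRNP chaperone Nolc1 differed by -0.05, the transcriptional co-regulator Mybbp1a by -0.025 and the RNA helicase Ddx21 by 0.04, each with an SE of 0.06 to 0.10.

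Small subunit assembly was covered by 11 genes, whose differences lay between -0.12 and 0.06. At the ends of this range were Nop14 (-0.12, SE 0.09) and Wdr75 (0.06, SE 0.07), both parts of the small subunit processome, the particle that forms on the nascent precursor. Utp20 and Rrp12 lay closest to 0 (-0.001, SE 0.06, and 0.002, SE 0.06), and 9 of the 11 genes differed by less than 0.1. The others were Rrp9, a U3 snoRNP protein, at -0.11 (SE 0.09), Wdr43 and Utp14a at -0.09 each (SE 0.07 and 0.13), the endonuclease gene Nob1 at -0.025, the late assembly factors Tsr1 and Bysl at 0.01 and 0.02, and the processome scaffold Heatr1 at 0.05.

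Large subunit assembly held 10 measured genes with differences from -0.165 to 0.18. Rrs1, known in yeast for bringing the 5S particle into the subunit, was at the lower end (-0.165, SE 0.11), and Gnl3, the nucleolar GTP-binding protein nucleostemin, at the upper end (0.18, SE 0.10). The 3 proteins of the PeBoW complex, which acts in processing of the large subunit rRNA, split in direction: Bop1 differed by 0.12 (SE 0.085), Pes1 by 0.06 (SE 0.07) and Wdr12 by -0.09 (SE 0.06). The 2 probe sets of Wdr12 gave -0.09 and -0.05, and the first, with the higher level, was used. On that probe set Wdr12 was the third and last member with all PE arrays below all untreated arrays, after Rrn3 and Polr1a. Whether both probe sets of Wdr12 read the same place in the genome was not checked, nor was the separation on the other one. That makes 3 of 39 members separated downwards (6.15% of all genes) and 0 separated upwards (6.7% of all genes). The remaining 5, namely the RNA methyltransferase Nop2 and the genes Nop16, Rrp1b, Ddx18 and Noc3l, lay between -0.05 and 0.08.

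**Figure D2:**
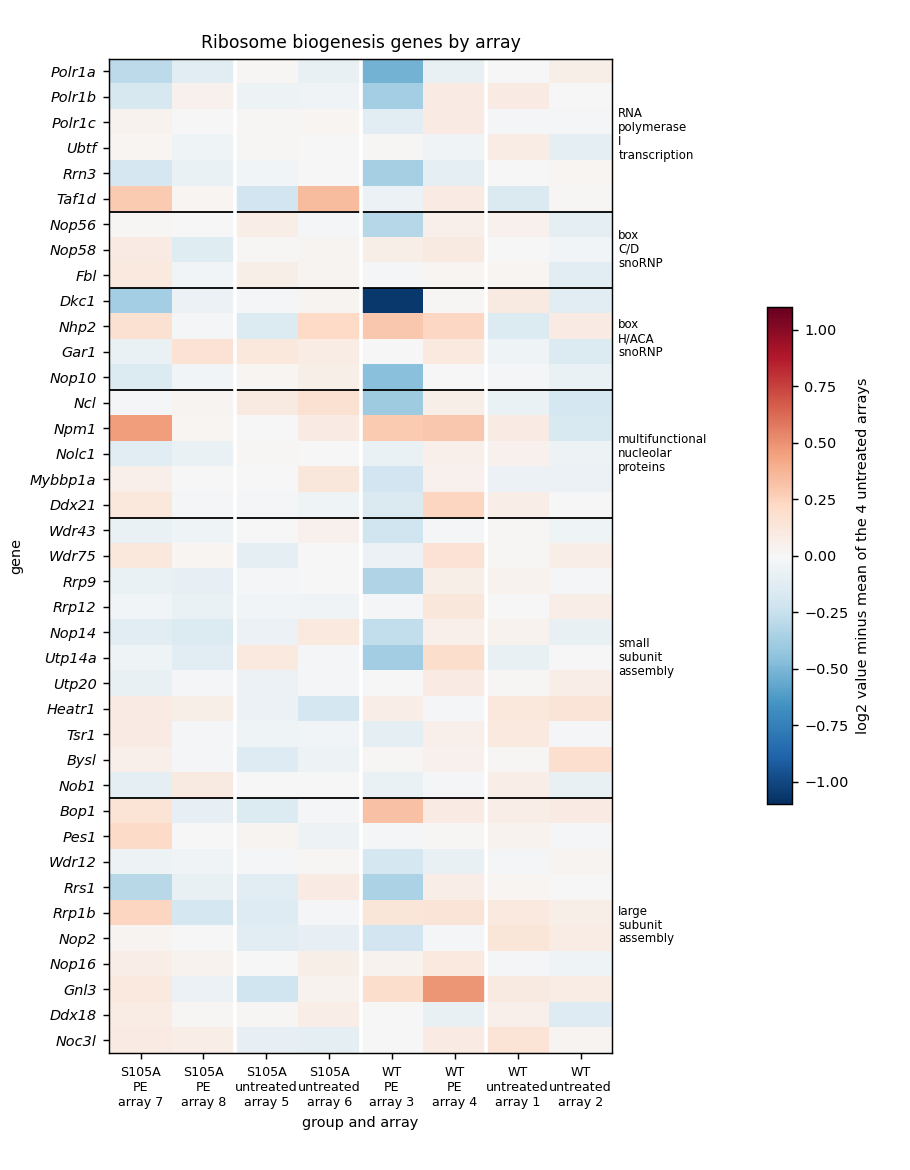
Log2 value of each gene on each array minus that gene's mean over the 4 untreated arrays, by role from top to bottom and by group from left to right; blue is below and red above the untreated mean. The darkest blue cell is Dkc1 on WT PE array 3, the array on which 18 of the 39 genes have their lowest value.

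The 2 WT PE arrays also differed from each other. Array 3 lay below array 4 for 34 of the 39 members (53.1% of all genes), with a median difference of -0.16 log2 units, against -0.02 over all genes. Of the members, 18 had their lowest value of all 8 arrays in array 3 (25.9% of all genes). Besides Dkc1, the largest gaps were those of Utp14a (-0.58), Nop10 and Polr1b (-0.46 each) and Ncl (-0.455). Bop1 (0.23) was the member with the largest gap in the other direction. A lower array 3 was shared by other lists described below. It held for 14 of 14 RNA exosome genes, 41 of 53 further large subunit factors and 31 of 41 small subunit ones. It also held for 8 of 10 heart muscle and 6 of 6 endothelial markers. By contrast it held for 4 of 9 further RNA polymerase I genes, 14 of 57 ribosomal proteins, 0 of 8 fibroblast markers and 0 of 8 macrophage markers. In S105A PE, array 7 lay below array 8 for 13 of 39 members (55.4% of all genes), with a median of 0.04. Without array 4, which leaves array 3 as the only WT PE array, 10 members were lower in the averaged PE effect at an unadjusted p under 0.05 (16.2% of all genes in that fit). Of these, Dkc1, Nop10, Polr1a and Rrn3 passed an adjusted p of 0.05 (smallest limma adjusted p = 0.00809), as did 20.7% of all genes in that fit. Without array 3 there was 1 higher member, Gnl3 (7.24% of all genes in that fit), and 0 were lower (5.11%). Leaving out array 2, 5 or 7 gave 0 members in either direction, against 8.95%, 8.26% and 6.95% of all genes, and leaving out array 1 or 6 gave 1, against 9.47% and 9.23%.

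Marker lists were read on the same arrays. Taking the S105A PE arrays 7 and 8 and then the WT PE arrays 3 and 4, the 7 measured markers of dividing cells averaged log2 levels of 7.84, 6.415, 7.74 and 6.54, against 5.68 to 5.94 untreated. Fibroblast markers (8 genes) averaged 10.94, 10.15, 11.30 and 10.145 in the same order of arrays, against 9.15 to 9.275 untreated, and macrophage markers (8 genes) 9.11, 8.39, 9.56 and 8.68, against 7.75 to 8.17 untreated. Endothelial markers (6 genes) averaged 10.03, 10.24, 9.79 and 10.15, against 10.17 to 10.425, and heart muscle markers (10 genes) 13.44, 13.48, 13.17 and 13.50, against 13.51 to 13.53. T and B cell markers (3 genes) lay between 5.01 and 5.37 on all arrays, and the 2 measured erythroid markers averaged 6.98, 7.17, 6.445 and 6.835, against 7.44 to 7.99 untreated. The 39 ribosome biogenesis genes averaged 8.235, 8.20, 8.10 and 8.30, against 8.19 to 8.25 untreated. On arrays 7 and 3, where markers of dividing cells were highest, their mean lay inside and below the untreated range, respectively. The part of cell composition in the members' values was not tested.

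**Figure D3:**
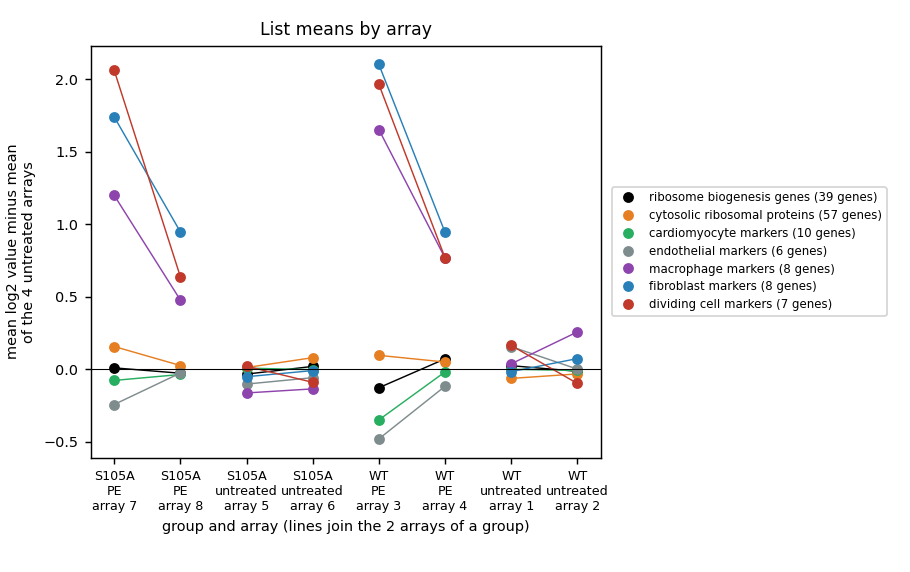
Mean log2 level of each gene list on each array minus its mean over the 4 untreated arrays; lines join the 2 arrays of a group. Markers of dividing cells, fibroblasts and macrophages lie above 0 on all 4 PE arrays and highest on arrays 7 and 3, whereas the ribosome biogenesis genes average 8.10 on array 3 and between 8.19 and 8.30 on the others.

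**Figure D4:**
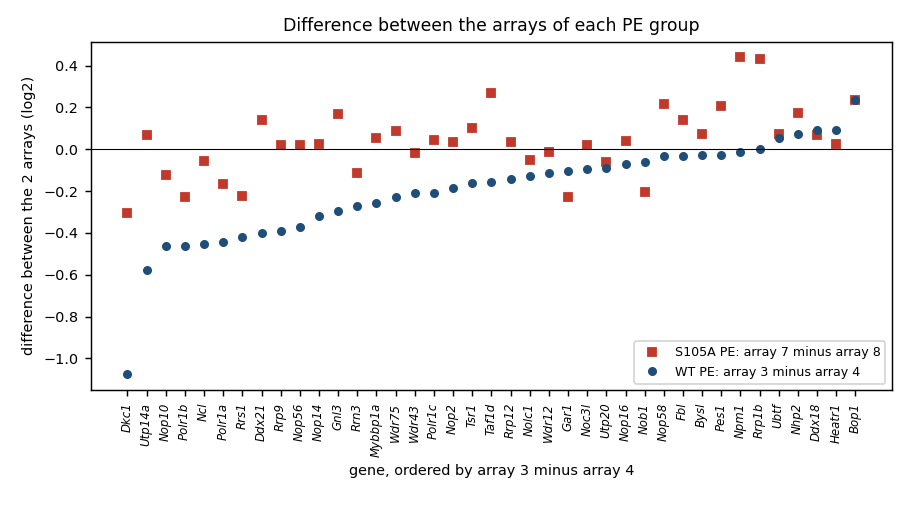
Difference in log2 value between the 2 arrays of the S105A PE group (squares, array 7 minus array 8) and of the WT PE group (circles, array 3 minus array 4) for each gene, ordered by the WT PE gap. The circles lie below 0 for 34 of 39 genes and the squares for 13.

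Within wild-type hearts, 0 members passed an adjusted p of 0.05 for PE by limma (smallest 0.419), and 1 gene of all 19938 did. The median difference was -0.02, with a range of -0.52 (Dkc1) to 0.335 (Npm1), and 16 members lay above 0 (48.9% of all genes). A single member, Nop2, was lower at an unadjusted p under 0.05 (5.76% of all genes), and 0 were higher (5.99% of all genes), against 11.7% of all genes in either direction. Nop2 measured 7.73 and 7.91 in WT PE, against 8.07 and 8.02 in WT untreated. The difference was -0.22 (SE 0.09, 95% interval -0.43 to -0.01, limma unadjusted p = 0.0416, adjusted p = 0.419), and -0.13 without arrays 3 and 7. The interval stayed within 1.5-fold either way for 35 members (75% of all genes), the exceptions being Polr1a, Dkc1, Nhp2 and Npm1. These counts depended on which WT PE array was kept. Without array 4, 11 members were lower at an unadjusted p under 0.05 (15.1% of all genes in that fit) and the median was -0.10. The same 4 genes, Dkc1, Nop10, Polr1a and Rrn3, then passed an adjusted p of 0.05 (17.8% of all genes in that fit). Without array 3, 1 member, Gnl3, was higher (2.74% of all genes in that fit), 0 were lower and the median was 0.06. Without array 1, 2, 5 or 6 the count was 0, against 4.76% to 7.62% of all genes in either direction. In the fits without array 3 or 4 the WT PE group is a single array, which is assumed to vary like the other groups.

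In S105A hearts the PE effect on the members was likewise without a call (smallest limma adjusted p = 0.765, with 0 of all genes past 0.05). The median was -0.01 and the range ran from -0.23 (Dkc1) to 0.20 (Heatr1), with 17 members above 0 (43.6% of all genes). Heatr1, which encodes a large repeat protein of the small subunit processome, was the 1 member higher at an unadjusted p under 0.05 (3.09% of all genes), and 0 were lower (2.77% of all genes), against 5.86% of all genes in either direction. It measured 7.60 and 7.57 in S105A PE, against 7.44 and 7.32 in S105A untreated. The difference was 0.20 (SE 0.08, 95% interval 0.006 to 0.40, limma unadjusted p = 0.0453, adjusted p = 0.765). For 38 members the interval lay within 1.5-fold either way (79.3% of all genes), Dkc1 again being outside. Without arrays 3 and 7 the difference of Heatr1 was 0.19 (limma unadjusted p = 0.0975). The count of members was 0 without array 1, 2, 6 or 7, against 1.9% to 4.3% of all genes in either direction, and 2 without array 8, against 10% of all genes.

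The design also asks whether the 2 genotypes differed in their response to PE. In the test of that difference 0 of 39 members passed an adjusted p of 0.05 by limma (smallest 1.00), as did 0 of all genes. The median difference, S105A response minus WT response, was 0.007, and 22 members lay above 0 (47.5% of all genes). Nop2 and Heatr1 were the 2 members with a positive difference at an unadjusted p under 0.05 (0.903% of all genes), and 0 members had a negative one (1.52% of all genes), against 2.42% of all genes in either direction. For Nop2 the difference between responses was 0.35 (SE 0.125, limma unadjusted p = 0.0290, adjusted p = 1.00), made up of 0.12 (SE 0.09) in S105A and -0.22 (SE 0.09) in WT. For Heatr1 it was 0.30 (SE 0.12, limma unadjusted p = 0.0376, adjusted p = 1.00), with 0.20 (SE 0.08) in S105A and -0.10 (SE 0.08) in WT. The intervals are wider here, and 29 members stayed within 1.5-fold (62% of all genes). The median was -0.09 without array 3, 0.12 without array 4 and -0.12 without arrays 3 and 7, so its sign differed with the WT PE array that was kept. Without arrays 3 and 7 the difference was 0.24 for Nop2 (limma unadjusted p = 0.109) and 0.34 for Heatr1 (limma unadjusted p = 0.0498). Leaving out array 1, 2, 6, 7 or 8 alone left 0 members at an unadjusted p under 0.05, against 1.62% to 2.54% of all genes in either direction, and leaving out array 5 left 1, against 1.81%. Leaving out array 4 gave 4 members with a positive difference, against 7.86% of all genes in that fit, and leaving out array 3 gave 3 in either direction, against 4.19%.

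The untreated hearts of the 2 genotypes were compared next. None of the members passed an adjusted p of 0.05 between S105A and WT (smallest limma adjusted p = 0.962, with 0 of all genes past the threshold), the median was 0.008 and 20 members lay above 0 (50.9% of all genes). Heatr1 and Nop2 were the 2 members lower in S105A at an unadjusted p under 0.05 (2.53% of all genes), and 0 were higher (2.43% of all genes), against 4.96% of all genes in either direction. Heatr1 measured 7.44 and 7.32 in S105A untreated, against 7.625 and 7.65 in WT untreated, a difference of -0.26 (SE 0.08, limma unadjusted p = 0.0182, adjusted p = 0.962). Nop2 measured 7.81 and 7.84 in S105A untreated, against 8.07 and 8.02 in WT untreated, a difference of -0.22 (SE 0.09, limma unadjusted p = 0.0455, adjusted p = 0.962). For both genes the S105A arrays lay below the WT arrays with no overlap. The genes were picked by their p in this contrast, so the separation adds no support. The share of all genes separated in this way was not counted. The untreated groups also enter the responses to PE given above, so these values and the differences in response share arrays. Noc3l (-0.185, SE 0.08) and Bysl (-0.20, SE 0.09) came next with an unadjusted p of 0.0622 and 0.0697 in limma. On the other side, Ncl was at 0.27 (SE 0.15) and Gar1 at 0.19 (SE 0.10). Intervals within 1.5-fold were found for 36 members (82.5% of all genes), all but Taf1d, Dkc1 and Ncl. The count of members was 0 without array 2 or 6, against 2.29% and 2.55% of all genes in either direction, and 1 without array 1, 7 or 8, against 3.93% to 4.49%.

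Under PE, 0 of 39 members differed between S105A and WT at an adjusted or an unadjusted p under 0.05 in limma (at the unadjusted level 1.25% of all genes were higher, 1.43% lower and 2.68% either; at the adjusted level 0 were). The median difference was 0.04, and 24 members lay higher in S105A (46.9% of all genes). Nop2 measured 7.97 and 7.93 in S105A PE, against 7.73 and 7.91 in WT PE (0.13, SE 0.09), and Heatr1 7.60 and 7.57, against 7.58 and 7.49 (0.05, SE 0.08). Gnl3 had the smallest p, with 7.79 and 7.615 in S105A PE, against 7.87 and 8.17 in WT PE (-0.32, SE 0.14, limma unadjusted p = 0.0523, adjusted p = 0.989). Without array 3, 2 members were lower in S105A at an unadjusted p under 0.05 (2.15% of all genes in that fit) and the median was -0.06. Without array 4, 8 members were higher (10.2% of all genes in that fit), of which Dkc1 passed an adjusted p of 0.05 (limma adjusted p = 0.0403, 3.57% of all genes past it in that fit), and the median was 0.13, and without array 7 there was 1 lower (1.71% of all genes in that fit). Taf1d, Dkc1 and Gnl3 were the members whose interval reached beyond 1.5-fold, and 36 stayed within it (82.1% of all genes).

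**Figure D5:**
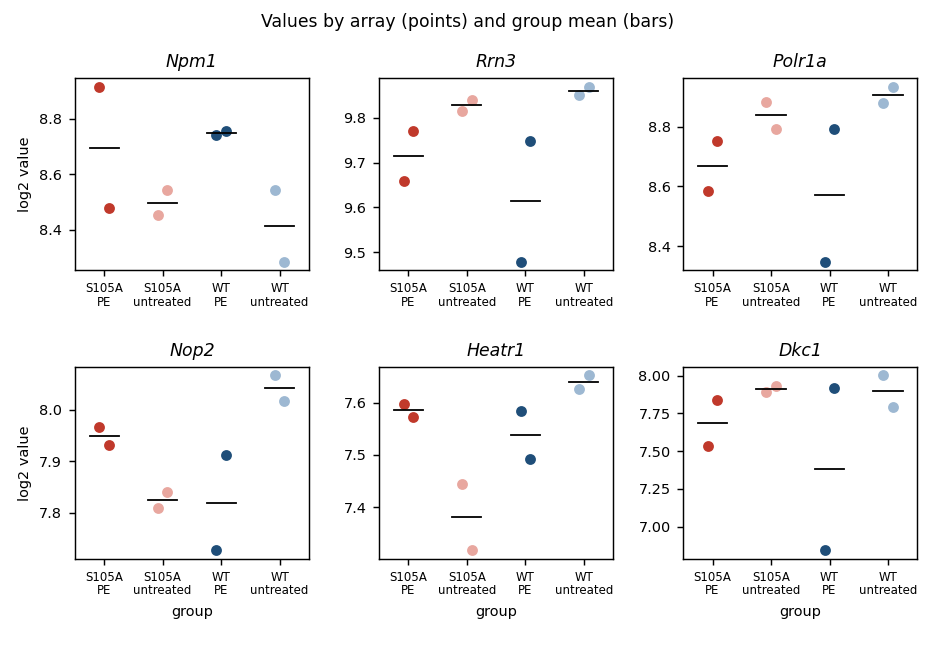
Log2 values of 6 genes on each array (points) with group means (bars), by group from left to right; the vertical axes differ and do not start at 0. Rrn3 and Polr1a lie lower in PE than in untreated hearts of each genotype, Nop2 and Heatr1 are lower in S105A untreated than in WT untreated, and Dkc1 has its lowest value, 6.84, in a WT PE heart.

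Genes of the same pathway outside the 39 were examined in the averaged PE effect, again with 0 past an adjusted p of 0.05 in these lists. At an unadjusted p under 0.05, the level of the counts that follow, 9.31% of all genes were higher and 7.44% lower. Of 9 further genes of RNA polymerase I transcription, 1 was higher, the polymerase subunit gene Polr1e (0.39, SE 0.13), and 0 were lower. Of 41 further small subunit factors, 1 was higher, Imp4 (0.29, SE 0.10), and 4 were lower, among them the RNA helicase gene Ddx49 (-0.24, SE 0.07), Mphosph10 (-0.26, SE 0.09) and Noc4l (-0.16, SE 0.06). Large subunit factors numbered 53, of which 3 were higher and 2 lower. Those with the smallest p were Ddx24 (-0.26, SE 0.08), Mak16 (0.18, SE 0.07), Nsa2 (0.22, SE 0.08) and Eif6 (0.25, SE 0.10), the last encoding a factor that keeps the subunits apart. Of 14 genes of the RNA exosome and its helpers, which trim rRNA ends, 1 was lower, the helicase gene Mtrex (-0.29, SE 0.11). The medians of these lists were -0.03, -0.04, -0.02 and -0.05.

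Ribosomal proteins are what this machinery assembles. Of 85 listed genes of cytosolic ribosomal proteins, 57 were measured. In the averaged PE effect 49 of them had a difference above 0 (44% of all genes). Their median was 0.085, against -0.02 over all genes. At an unadjusted p under 0.05, 14 were higher (9.31% of all genes), against 1 lower (7.44% of all genes). None passed an adjusted p of 0.05 (smallest limma adjusted p = 0.277). By genotype, 11 were higher with PE in WT at an unadjusted p under 0.05 (5.99% of all genes) and 0 in S105A (3.09% of all genes). The medians were 0.145 in WT and 0.064 in S105A. In the test of the difference between these responses, 0 were higher (0.903% of all genes) and 0 lower (1.52%) at that level. Between untreated hearts, 49 of the 57 lay higher in S105A than in WT (50.9% of all genes), with a median of 0.082. Under PE the median between genotypes was -0.005. In the averaged PE effect, Rpl10 was at 0.38 (SE 0.11), Rpl41 at 0.21 (SE 0.06), Rps4x at 0.24 (SE 0.08) and Rps9 at 0.17 (SE 0.06). For Rpl10 the levels were 12.30 and 12.03 in S105A PE and 12.40 and 11.995 in WT PE, against 11.83 and 11.85 in S105A untreated and 11.805 and 11.74 in WT untreated, with no overlap. Of the 57 genes, 8 were separated upwards in this way (6.7% of all genes) and 1 downwards (6.15% of all genes). Without arrays 3 and 7 the median was 0.04, and 3 genes in place of 15 were at an unadjusted p under 0.05 in either direction, against 11.4% of all genes in that fit and 16.7% with all arrays. Both PE arrays with the higher ribosomal protein means, array 7 at 10.785 and array 3 at 10.72, are those with the highest markers of dividing cells, fibroblasts and macrophages, and the part of these cells was not tested. The other PE arrays, 4 and 8, averaged 10.68 and 10.65, inside the untreated range of 10.565 to 10.71. Many ribosomal protein genes have processed copies in the genome that share sequence with them, so their values are uncertain, and Rpl10 was read by 6 probe sets of which the one with the highest mean was used. Rpl3l, the striated muscle form of Rpl3, was named after its value was seen, as the lowest of the list. Its level was 9.31 and 10.27 in S105A PE and 7.295 and 10.27 in WT PE, against 10.57 and 10.53 in S105A untreated and 10.69 and 10.87 in WT untreated. Array 3 minus array 4 was -2.98, and the averaged PE difference was -1.38 (SE 0.61, limma unadjusted p = 0.0581, adjusted p = 0.307).

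Regulators of the pathway were read as well. Myc, a transcription factor known to drive ribosome biogenesis genes, measured 8.29 and 7.65 in S105A PE and 8.19 and 7.95 in WT PE, against 7.10 and 7.41 in S105A untreated and 7.23 and 7.44 in WT untreated. Every PE value of Myc exceeded every untreated one (so for 6.7% of all genes), and the difference was 0.73 (SE 0.16, limma unadjusted p = 0.00269, adjusted p = 0.275). Its partner Max was at -0.305 (SE 0.08, limma unadjusted p = 0.00722, adjusted p = 0.275), also without overlap (6.15% of all genes were separated downwards), and Mycn was at -0.32 (SE 0.14, limma adjusted p = 0.308). Of the 12 measured genes of the Myc network, Myc and Max were the 1 higher (9.31% of all genes) and the 1 lower (7.44% of all genes) at an unadjusted p under 0.05. Gata4 itself differed by -0.005 (SE 0.075) with PE. The probe set cannot see the point mutation, so this value does not check the genotype.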

How the data were processed

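Frozen hearts gave biotin-labelled RNA for 1 array per mouse, per the labels' protocols. The authors deposited values on a log2 scale, as read from their range, and the submitters' processing notes name RMA without a version. The platform annotation named 1 gene for 21789 of 35557 probe sets, which gave 19938 genes after the probe set with the highest mean was kept for each.

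Groups came from the titles, which number separate animals. In limma 3.58.1 (R 4.3.3), all genes of the 8 arrays entered a single linear model in which each group had its own coefficient, leaving 4 residual degrees of freedom and 2.74 prior ones, and 6 contrasts were taken. Tests were two-sided, with Benjamini-Hochberg adjustment over all genes of a contrast. The fit was tested on simulated data. Only 2 arrays per group limit the precision.

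Named genes were those at an unadjusted p under 0.05, the ends of each role group, at most 4 genes per further list, and Myc, Mycn and Gata4; other members are given for completeness. Rpl3l was added after its value was seen. The members and lists were chosen with earlier results of these data known. Alternatives were a filter leaving out the 40% of genes with the lowest mean, averaging each gene's probe sets, quantile normalizing the values again, a variance model with trend and robust settings, a fit on the 4 arrays compared, and leaving out arrays. Figures were drawn with matplotlib 3.10.9.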

Additional observations from a re-analysis of the deposited data

How the results depend on the processing

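Without array 4, members passed an adjusted p of 0.05 in limma: Dkc1, Nop10, Polr1a and Rrn3 for PE in WT and for PE averaged, and Dkc1 between genotypes under PE. Under the other alternatives run, 0 did. All further counts here are of members at an unadjusted p under 0.05. No paired analysis was possible because the groups share no replicate numbers. The share of all genes at that level in either direction follows each count. Without the 40% of genes with the lowest mean the count was 0 for PE in WT (13.8%), PE in S105A (5.22%) and PE averaged (20.3%), and 1 between untreated genotypes (4.95%). A further quantile normalization gave 0 for PE in S105A (5.58%) and 1 each for the difference in PE effects (2.12%), the genotypes untreated (4.62%) and the genotypes under PE (2.65%). A trended and robust variance gave 0 for PE in WT (11.4%), in S105A (5.92%) and averaged (16.4%), and 1 for the difference (2.52%) and for the genotypes untreated (4.94%). Fits on only the 4 arrays compared gave 0 for PE in S105A (11%) and 4 between untreated genotypes (12.4%). Without arrays 3 and 7 the counts were 2 for PE in WT (9.91%), 0 for PE in S105A (7.89%) and averaged (11.4%), and 4 between genotypes both untreated (12.4%) and under PE (4.8%), and the medians were 0.058 for PE in WT, -0.119 for the difference and -0.066 for the genotypes under PE. Leaving out 1 array at a time gave counts of 0 to 11 for PE in WT (4.76% to 30.9%), 0 to 2 for PE in S105A (1.9% to 13.4%), 0 to 10 for PE averaged (6.95% to 32.8%), 0 to 4 for the difference (1.62% to 14%), 0 to 3 for the genotypes untreated (2.29% to 7.77%) and 0 to 8 for the genotypes under PE (1.87% to 20.6%). The medians then ran from -0.097 to 0.058 for PE in WT, from -0.089 to 0.121 for the difference, from -0.041 to 0.017 for the genotypes untreated and from -0.059 to 0.132 for the genotypes under PE. The highest counts for PE in WT, PE averaged, the difference and the genotypes under PE came without array 4, which leaves array 3 alone in its group. The cause was not tested. The 4 members named by an unadjusted p, Nop2, Heatr1, Npm1 and Rrn3, have 108 alternative values of their 8 results. In 68 of these the unadjusted p was no longer under 0.05. The direction was kept in all, but in many it could not change. The gene filter, the variance model and the fits on 4 arrays leave the estimate as it was. So do averaging, since each of these genes has 1 probe set, and leaving out an array outside the contrast. Other members were not followed singly.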

Other observations

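Genes that respond to failing ribosome production through p53 were read in the averaged PE effect. Of 10 measured, 1 was higher at an unadjusted p under 0.05 (9.31% of all genes), Zmat3 at 0.41 (SE 0.17), and 2 were lower (7.44% of all genes), Mdm2 at -0.32 (SE 0.075) and Gadd45a at -0.49 (SE 0.20). None passed an adjusted p of 0.05 in limma (smallest 0.275). Mdm2, which encodes the ubiquitin ligase that degrades p53, measured 9.04 and 9.22 in S105A PE and 9.08 and 9.07 in WT PE, against 9.37 and 9.26 in S105A untreated and 9.63 and 9.44 in WT untreated. All PE arrays lay below all untreated arrays (so for 6.15% of all genes). Of 5 measured host genes of small nucleolar RNAs, 1 was higher at the same level (9.31% of all genes), Snhg5 at 0.38 (SE 0.13), with 6.71 and 6.175 in S105A PE and 6.49 and 6.45 in WT PE, against 6.00 and 6.31 in S105A untreated and 6.09 and 5.915 in WT untreated. Array 8 lay inside the untreated range.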
